A study of Homo sapiens with 12 samples.

Results

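The genes described here encode chromatin regulators other than the subunits of Polycomb repressive complex 2 (PRC2), the complex whose catalytic subunit EZH2 is the target of 1 of the drugs used. They were chosen by gene symbol, with earlier results of these data known. Included were all genes of the count files in the families KDM, HDAC, SIRT, SETD, DNMT, TET, CBX, PCGF, PHC, KAT, MLL, SUV, ARID, SMARC and BRD, together with BMI1, RNF2 and RING1. The rule left out KDM5D, and the pseudogene BRD7P3 was removed. This gave 121 of the 23228 genes in the files, and 118 of them had enough counts to be tested. The other members were ARID3C and DNMT3L, with 8 to 24 counts summed over the 3 libraries of a group, and KDM4DL, which had 0 counts in all 12 libraries. By role, assigned from the symbols, there were 16 subunits of Polycomb repressive complex 1 (PRC1), 3 HP1 proteins, 7 genes of DNA methylation, 18 histone methyltransferases, 16 lysine demethylases, 7 acetyltransferases and 18 deacetylases. There were also 7 bromodomain proteins, 16 subunits of SWI/SNF and other remodelers, 7 other ARID genes and 6 MLLT genes, which match the rule only by their letters.

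SUM149PT is an established line from an inflammatory breast cancer of the triple-negative type. Its cells received 5 µM ipatasertib, which blocks the AKT kinases, 5 µM tazemetostat, which blocks EZH2, both drugs, or the solvent DMSO, with 3 libraries of polyadenylated RNA in each of the 4 groups. Per the labels' protocols, tazemetostat or DMSO was given from day -5, through passages on day -3 and day -1, and from day 0 all groups were held for 24 h in medium with 2% serum, with or without ipatasertib. Exposure to tazemetostat was thus longer than exposure to ipatasertib, and DMSO cells were kept in the same low serum. Whether the replicates A, B and C were separate cultures is not in the labels, so the spread behind each p-value may be technical.

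PRC2 methylates histone H3 at lysine K27. PRC1 reads that mark through its CBX subunits and adds ubiquitin to histone H2A, and together they keep developmental genes silent. The other regulators write, remove or read further marks: acetylation is added by KAT enzymes, removed by HDAC and SIRT enzymes and read by bromodomains, and SWI/SNF remodelers, which slide or evict nucleosomes, oppose Polycomb silencing. EZH2 and several of these genes, DNMT1 among them, are known to be expressed more in dividing cells, where chromatin and DNA methylation have to be copied.

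The libraries held 22355242 to 39001543 gene counts (ipatasertib), 43226082 to 49970540 (tazemetostat), 26024012 to 35417607 (combination) and 32470808 to 44924160 (DMSO). Replicates differed by more than counting error, and 2 libraries, tazemetostat A and combination B, departed from their groups, with a chi-square per degree of freedom of 14.4 to 24.9 in their pairs against 2.64 to 6.68 in all others. The epithelial markers EPCAM, CDH1, KRT5, KRT8 and KRT18 were present in every library, at a summed 1570 to 1710 CPM (counts scaled to a common library size) with ipatasertib, 2200 to 2420 CPM with tazemetostat, 1510 to 1580 CPM with the combination and 2630 to 2750 CPM under DMSO. These markers did not move alike. On the log2 scale EPCAM was at 0.06, -0.05 and 0.09 against DMSO with ipatasertib, tazemetostat and the combination. KRT5 was at -2.11, -0.40 and -3.53, and KRT8 at -0.70, -0.29 and -0.76. CDH1 was at -0.47, -0.21 and -0.38, and KRT18 at -0.47, -0.17 and -0.51. ESR1 stayed between 3.27 and 5.86 CPM, and PGR had between 0 and 8 counts per group. Of the markers of other cells, CD3E and CD79A had at most 10 counts in a group, CD68 had 210 to 403 CPM in all libraries, and the summed fibroblast markers, mostly DCN, had 153 to 161 CPM (ipatasertib), 28.1 to 30.5 (tazemetostat), 27.9 to 39 (combination) and 130 to 151 (DMSO). Within that list, with ipatasertib, DCN was at 0.41 on the log2 scale, LUM at 0.31 and PDGFRB, under 1 CPM, at 1.05. COL3A1 was at -1.21 and COL1A2, also under 1 CPM, at -1.10. With tazemetostat and the combination DCN, LUM, COL3A1 and COL1A2 were lower. PDGFRB was then at -0.56 and 0.52 (edgeR adjusted p = 0.371 and 0.314). The leukocyte marker PTPRC was higher in the combination, at 1.47 to 2.2 CPM against 0.234 to 0.392 CPM under DMSO (5.49-fold), while CD68 was at -0.66. The summed endothelial markers had 3.09 to 3.86 CPM (ipatasertib), 1.42 to 1.91 (tazemetostat), 4.76 to 6.62 (combination) and 0.902 to 1.44 (DMSO), with PECAM1 4.67-fold and CDH5 4.78-fold higher in the combination. In bulk RNA, fewer cells of a type and less RNA per cell cannot be told apart, and the part of these differences in the results was not tested.

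The promoters below belong to the member with the largest rise in the combination (CBX7), the member with the largest fall (MLLT11) and the 3 members (PCGF5, KDM4C and TET3) whose window held a searched motif, of the 15 with a window among 17 past a 1.5-fold change in the combination. Each is the RefSeq window of assembly GRCh38.p14 from 250 bases before to 50 bases after the gene's start, read 5′ to 3′ on the gene's strand. Capitals mark the forkhead motif TGTTTAC, here on the opposite strand, in PCGF5 and the E-box CACGTG in KDM4C and TET3. The windows lie at chr22:39152631-39152930 (minus strand) for CBX7, chr1:151060147-151060446 (plus) for MLLT11, chr10:91162762-91163061 (plus) for PCGF5, chr9:6757723-6758022 (plus) for KDM4C and chr2:73984660-73984959 (plus) for TET3.
CBX7: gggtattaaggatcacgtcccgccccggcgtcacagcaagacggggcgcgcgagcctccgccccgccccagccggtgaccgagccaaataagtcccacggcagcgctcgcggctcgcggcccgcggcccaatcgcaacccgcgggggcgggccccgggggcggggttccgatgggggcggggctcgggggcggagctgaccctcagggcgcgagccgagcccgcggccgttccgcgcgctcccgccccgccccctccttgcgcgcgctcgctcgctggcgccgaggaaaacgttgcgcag
MLLT11: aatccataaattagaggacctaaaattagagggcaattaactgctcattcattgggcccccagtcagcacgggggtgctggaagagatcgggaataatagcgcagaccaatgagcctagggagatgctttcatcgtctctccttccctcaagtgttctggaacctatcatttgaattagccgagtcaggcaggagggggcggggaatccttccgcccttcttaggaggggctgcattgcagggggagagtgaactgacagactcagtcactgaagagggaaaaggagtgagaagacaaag
PCGF5: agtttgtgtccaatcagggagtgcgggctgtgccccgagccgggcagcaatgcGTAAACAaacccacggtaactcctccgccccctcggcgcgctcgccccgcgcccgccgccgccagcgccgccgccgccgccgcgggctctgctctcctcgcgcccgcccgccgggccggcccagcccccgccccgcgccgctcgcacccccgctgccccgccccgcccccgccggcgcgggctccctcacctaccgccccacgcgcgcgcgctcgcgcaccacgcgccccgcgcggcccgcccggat
KDM4C: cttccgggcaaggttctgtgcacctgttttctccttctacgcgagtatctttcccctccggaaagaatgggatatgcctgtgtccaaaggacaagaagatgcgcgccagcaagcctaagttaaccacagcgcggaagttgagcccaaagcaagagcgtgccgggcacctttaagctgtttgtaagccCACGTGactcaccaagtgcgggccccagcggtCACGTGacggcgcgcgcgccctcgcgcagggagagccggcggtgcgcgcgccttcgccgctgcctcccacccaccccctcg
TET3: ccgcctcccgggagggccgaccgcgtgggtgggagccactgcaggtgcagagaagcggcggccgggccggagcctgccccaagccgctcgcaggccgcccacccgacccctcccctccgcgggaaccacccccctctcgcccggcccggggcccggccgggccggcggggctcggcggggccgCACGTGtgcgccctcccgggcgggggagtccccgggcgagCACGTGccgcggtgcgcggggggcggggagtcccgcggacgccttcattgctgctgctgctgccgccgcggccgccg

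The windows of CBX7, PCGF5 and TET3 were rich in G and C, at 77.7%, 81.7% and 82.7% of bases, and that of MLLT11 was the poorest, at 51%. The forkhead motif in PCGF5 began 197 bases before the start. The pair of E-boxes began 63 and 31 bases before the start in KDM4C, and 67 and 27 bases before it in TET3. Over the 103 members with a window, the forkhead motif was in 2 (1.94%, against 3.41% of all 27305 windows), the E-box in 14 (13.6%, against 7.43%), and the E2F forms TTTCCCGC and TTTGGCGC in 3 (2.91%, against 1.66%) and 1 (0.971%, against 0.659%). All motifs were searched on both strands. A match describes letters only, and these shares were not tested.

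With ipatasertib 65 of 118 members passed the test against DMSO, 29 higher and 36 lower. That is 55.1%, beside 54.1% of all 14874 genes tested (25.4% higher and 28.7% lower). With tazemetostat 59 members passed, 22 higher and 37 lower, 50% beside 46.0% of all genes (25.1% higher and 20.9% lower). With the combination 78 passed, 38 higher and 40 lower, 66.1% beside 71.0% (36.5% higher and 34.5% lower). Throughout, a gene is said to be called, or to rise or fall, when edgeR's quasi-likelihood test over 3 libraries per group gave it a p-value under 0.05 after Benjamini-Hochberg adjustment across all tested genes. Without tazemetostat A and combination B the called members were 79, 73 and 90, beside 62.5%, 57.9% and 73.8% of all genes. The members' shares were close to the background, and their median log2 changes of -0.04 with ipatasertib, -0.04 with tazemetostat and -0.03 in the combination lay beside -0.01, 0.02 and 0.02 for all genes. The members' median absolute log2 change was 0.21 with ipatasertib, 0.18 with tazemetostat and 0.28 in the combination, beside 0.30, 0.22 and 0.45 for all genes. The genes were not matched on expression level, and noise at low counts enlarges this measure, so a smaller response of the members was not tested.

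The balance of higher and lower calls depends on how libraries are scaled. Scaling by total counts alone shifted the median log2 change over all genes upward, by 0.12 for ipatasertib, 0.07 for tazemetostat and 0.14 for the combination. It gave 41 members higher and 22 lower with ipatasertib, 29 and 22 with tazemetostat, and 51 and 26 with the combination. Higher calls were then 65.1%, 56.9% and 66.2% of calls, beside 44.6%, 37.3% and 48.7% with the TMM factors used here. For changes no larger than those shifts, the direction depends on the scaling.

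Large changes were few. Against a 1.5-fold change, tested with edgeR's glmTreat, 6 members passed with ipatasertib (5.08%, beside 7.32% of all genes), 4 with tazemetostat (3.39%, beside 7.36%) and 17 with the combination (14.4%, beside 25.9%). Those with ipatasertib were CBX7, HDAC5, ARID5B and MLLT3, all higher, and MLLT11 and DNMT1, both lower (all genes: 4.61% higher, 2.72% lower). Those with tazemetostat were SMARCA1, MLLT3, HDAC9 and CBX2, all higher (all genes: 6.29% higher, 1.06% lower). In the combination 10 were higher, namely CBX7, HDAC5, MLLT3, ARID5B, HDAC9, SMARCA1, PCGF5, CBX2, KDM4C and RNF2, and 7 were lower, namely MLLT11, DNMT1, SUV39H1, TET3, SUV39H2, SETD8 (the gene now named KMT5A) and SMARCA4; of all genes 16.4% were higher and 9.43% lower.

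**Figure D1:**
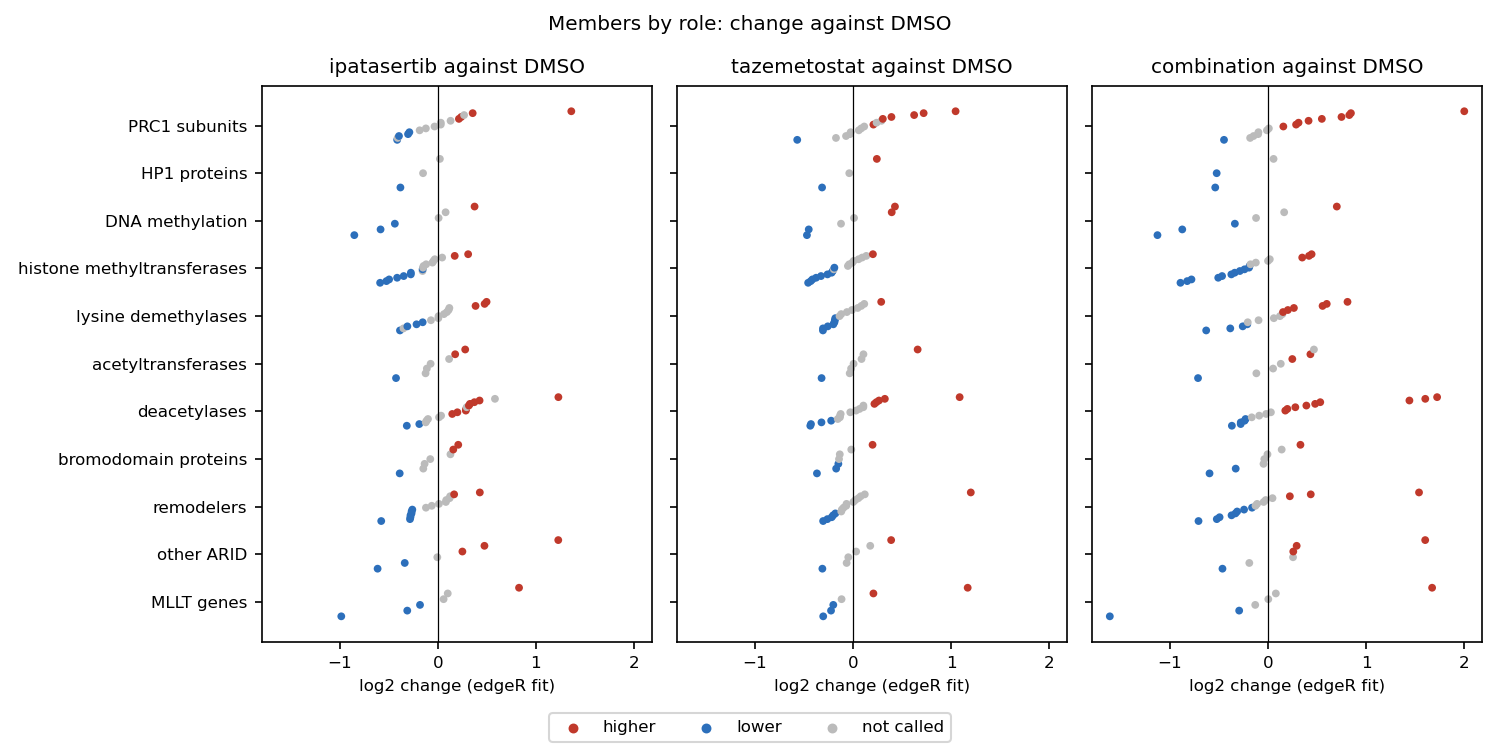
Log2 change of each of the 118 tested members against DMSO (horizontal axis, edgeR fit) by role (rows), in 1 panel each for ipatasertib, tazemetostat and the combination; red points are called higher, blue called lower and grey not called. Most points lie within 1 log2 unit of 0, and the highest point, CBX7, reaches 1.36 with ipatasertib and 2.00 with the combination.

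Among the PRC1 subunits, more were called higher than lower with tazemetostat and with the combination. Of 16 tested, 6 rose and 1 fell with tazemetostat, 9 rose and 1 fell with the combination, and with ipatasertib 4 rose and 4 fell, which became 5 and 1 under scaling by total counts. The called shares were 50% (ipatasertib), 43.8% (tazemetostat) and 62.5% (combination), none above the 54.1%, 46.0% and 71.0% of all genes, and the balance of directions was not tested. In the combination against ipatasertib alone 6 rose, CBX2, CBX7, RNF2 and PCGF5 among them, and 0 fell. Without tazemetostat A and combination B the calls were 6 higher and 3 lower with tazemetostat, 10 and 2 with the combination and 5 and 5 with ipatasertib. The median log2 change of the subunits was 0.00 with ipatasertib, 0.16 with tazemetostat and 0.22 in the combination.

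CBX7 encodes a chromodomain subunit of PRC1. It had 19.8, 23.2 and 21.1 CPM with ipatasertib, 10.5, 9.93 and 9.02 CPM with tazemetostat and 36.5, 27.0 and 35.8 CPM with the combination, against 8.35, 9.17 and 7.32 CPM under DMSO. The ipatasertib and combination libraries all lay above every DMSO library, and the combination libraries above every ipatasertib library, while tazemetostat and DMSO overlapped. The log2 change was 1.36 ± 0.12 with ipatasertib (SE; edgeR adjusted p = 9.1e-09) and 2.00 ± 0.11 with the combination (adjusted p = 6.2e-12), 4-fold above DMSO. With tazemetostat it was 0.24 (95% interval -0.01 to 0.49; edgeR adjusted p = 0.102), and the combination exceeded ipatasertib by 0.64 ± 0.11 (edgeR adjusted p = 7.24e-05).

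CBX2, another chromodomain subunit of PRC1, moved differently. It had 12.1, 11.5 and 12.6 CPM with ipatasertib, 36.9, 31.0 and 31.5 CPM with tazemetostat and 34.5, 22.2 and 28.6 CPM with the combination, against 17.0, 16.3 and 14.7 CPM under DMSO. The 4 groups did not overlap except for tazemetostat and the combination, and the lowest combination value came from library B. CBX2 rose with tazemetostat by 1.05 ± 0.11 on the log2 scale (SE; edgeR adjusted p = 4.5e-07) and in the combination by 0.83 ± 0.12 (adjusted p = 2.99e-06). With ipatasertib it fell by 0.41 ± 0.12 (edgeR adjusted p = 0.0086), a call that was lost under scaling by total counts and without DMSO A.

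CBX8 rose with tazemetostat by 0.39 ± 0.12 (edgeR adjusted p = 0.0121), a call lost without DMSO A, DMSO B or tazemetostat A. In the combination CBX8 changed by 0.29 ± 0.13 (edgeR adjusted p = 0.0483), a call that held under 7 of 20 alternatives, and by 0.47 without combination B. CBX6 was the chromodomain subunit that fell under all 3 treatments: it averaged 38.2 ± 1.16 CPM with ipatasertib, 33.9 ± 2.93 with tazemetostat and 36.8 ± 7.96 in the combination, against 50.2 ± 3.78 under DMSO (SD, n = 3 each). The changes were -0.39 (lost without DMSO A), -0.57 and -0.45, and without combination B, whose 28.6 CPM was the lowest value of all, the last was -0.28. The 3 comparisons share the DMSO libraries, so they are not independent of each other.

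The catalytic subunits differed. RNF2, a ubiquitin ligase for histone H2A, had 30.4, 27.9 and 29.7 CPM with ipatasertib, 36.0, 40.6 and 40.3 CPM with tazemetostat and 39.1, 48.4 and 40.1 CPM with the combination, against 25.3, 25.1 and 25.4 CPM under DMSO. All treated libraries lay above the DMSO libraries. The log2 changes were 0.22 ± 0.08 (SE; edgeR adjusted p = 0.0311), 0.62 ± 0.08 (adjusted p = 3.12e-06) and 0.75 ± 0.08 (adjusted p = 7.17e-08), and the first was lost without DMSO B, DMSO C or ipatasertib A. RING1, the paralogous ligase, was not called, at 0.03 with ipatasertib, -0.03 with tazemetostat and 0.01 in the combination, with a 95% interval of -0.20 to 0.22 for the last.

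The PCGF subunits set the type of PRC1 complex. PCGF5, of a complex without CBX subunits, had 46.6, 44.8 and 48.7 CPM with ipatasertib, 52.9, 65.2 and 62.3 CPM with tazemetostat and 64.4, 68.2 and 63.8 CPM with the combination, against 35.3, 37.1 and 37.1 CPM under DMSO. Every treated library was above every DMSO library. On the log2 scale PCGF5 changed by 0.36 ± 0.07 with ipatasertib (SE; edgeR adjusted p = 0.000428), 0.72 ± 0.07 with tazemetostat (adjusted p = 1.51e-07) and 0.84 ± 0.07 with the combination (adjusted p = 3.46e-09). PCGF2, of the CBX-containing complex, rose by 0.24 ± 0.07 with ipatasertib and by 0.41 ± 0.07 with the combination (edgeR adjusted p = 0.0063 and 2.23e-05). PCGF1 had a change of -0.29 ± 0.08 with ipatasertib (edgeR adjusted p = 0.00414), lost under scaling by total counts, and 0.21 ± 0.07 with tazemetostat (adjusted p = 0.0277), lost under 11 of 20 alternatives. BMI1, the paralogue of PCGF2, was not called in any comparison, at 2.13 to 4.73 CPM in all libraries. Its reads can also belong to the COMMD3-BMI1 readthrough, so its level is uncertain.

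**Figure D2:**
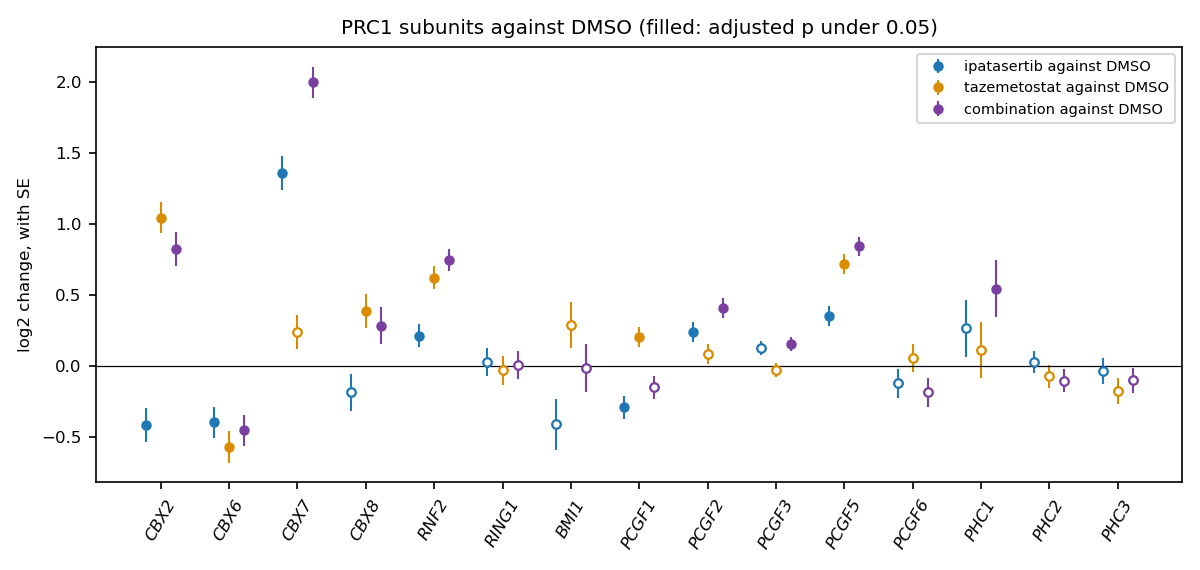
Log2 change with its standard error (vertical axis, edgeR fit) of 15 of the 16 PRC1 subunits against DMSO, for ipatasertib (blue), tazemetostat (orange) and the combination (purple); filled points are called and open points are not. CBX7 is highest with ipatasertib and the combination, CBX2 with tazemetostat, and CBX6 is below 0 under all 3 treatments.

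The HP1 proteins bind methylated lysine K9 of histone H3. CBX5 averaged 241 ± 4.50 CPM with ipatasertib, 215 ± 13.9 with tazemetostat and 184 ± 7.45 in the combination, against 267 ± 24.8 under DMSO (SD, n = 3 each). It fell with tazemetostat by 0.31 ± 0.07 on the log2 scale and with the combination by 0.54 ± 0.07 (edgeR adjusted p = 0.000736 and 5.2e-07). CBX1 fell with ipatasertib by 0.38 ± 0.05 and with the combination by 0.52 ± 0.06 (edgeR adjusted p = 8.73e-06 and 5.43e-08). CBX3 rose with tazemetostat by 0.24 ± 0.08 (edgeR adjusted p = 0.0207) and was at 0.02 with ipatasertib and 0.06 with the combination, neither of them called. In the combination it differed from tazemetostat by -0.19, which was not called either (edgeR adjusted p = 0.0547).

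The genes that write and oxidise DNA methylation changed in both directions. DNMT1, which copies methylation onto new DNA strands, had 173, 176 and 176 CPM with ipatasertib, 294, 284 and 291 CPM with tazemetostat and 153, 139 and 141 CPM with the combination, against 320, 318 and 307 CPM under DMSO. The combination libraries were the lowest, then ipatasertib, and tazemetostat lay just below DMSO without overlap. DNMT1 fell by 0.85 ± 0.05 on the log2 scale with ipatasertib (SE; edgeR adjusted p = 1.52e-10) and by 1.13 ± 0.05 with the combination (adjusted p = 4.8e-13), which is 2.19-fold lower. With tazemetostat the change was -0.12 (95% interval -0.23 to -0.01; edgeR adjusted p = 0.0679).

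The methyltransferases that set new methylation, DNMT3A and DNMT3B, both rose with tazemetostat but moved in opposite directions with ipatasertib and the combination. DNMT3A had 5.87, 6.62 and 6.87 CPM with ipatasertib, 6.66, 6.35 and 6.91 CPM with tazemetostat and 9.13, 7.78 and 7.24 CPM with the combination, against 5.11, 5.08 and 4.58 CPM under DMSO. All treated libraries exceeded all DMSO libraries. Its log2 change was 0.38 ± 0.11 with ipatasertib, 0.43 ± 0.11 with tazemetostat and 0.70 ± 0.11 in the combination (SE, edgeR adjusted p = 0.00885, 0.00333 and 1.22e-05). DNMT3B averaged 9.32 ± 1.01 CPM with ipatasertib, 16.6 ± 0.554 with tazemetostat and 10 ± 0.938 in the combination, against 12.7 ± 0.740 under DMSO (SD, n = 3 each). It was lower with ipatasertib (-0.44 ± 0.10; edgeR adjusted p = 0.000739), higher with tazemetostat (0.40 ± 0.09; adjusted p = 0.00132) and lower in the combination (-0.34 ± 0.10; adjusted p = 0.00361), the last not called under scaling by total counts.

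TET enzymes oxidise methylated cytosine. TET3, whose promoter is printed above, had 48.3, 47.5 and 54.2 CPM with ipatasertib, 52.6, 55.4 and 54.2 CPM with tazemetostat and 43.5, 37.7 and 41.1 CPM with the combination, against 76.8, 76.1 and 71.4 CPM under DMSO. The combination libraries were the lowest and the DMSO libraries the highest, and the 2 single treatments overlapped. TET3 fell by 0.58 ± 0.07 with ipatasertib, 0.47 ± 0.07 with tazemetostat and 0.88 ± 0.07 in the combination on the log2 scale (SE; edgeR adjusted p = 6.12e-07, 1.25e-05 and 7.5e-10). TET1 fell with tazemetostat, by 0.45 ± 0.10 (edgeR adjusted p = 0.00106), with 6.13, 7.58 and 8.07 CPM against 10, 10.4 and 9.35 CPM under DMSO. TET1 was not called with ipatasertib (0.08) or the combination (-0.12), nor was TET2 in any comparison with DMSO (0.01, 0.01 and 0.16).

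Among the 18 genes grouped by symbol as histone methyltransferases (SETD, SUV and MLL genes) more were called lower than higher, which was not tested as a balance. The grouping does not show that each of them acts on histones. The called shares were 55.6%, 55.6% and 77.8% with ipatasertib, tazemetostat and the combination, beside 54.1%, 46.0% and 71.0% of all genes. With ipatasertib 2 rose and 8 fell, with tazemetostat 1 rose and 9 fell, and with the combination 3 rose and 11 fell, and lower calls outnumbered higher ones also under scaling by total counts (2 and 5, 3 and 6, 4 and 6) and without tazemetostat A and combination B (2 and 10, 2 and 10, 3 and 12). SUV39H1, which trimethylates lysine K9 of histone H3, had 24.9, 24.8 and 23.9 CPM with ipatasertib, 33.9, 31.6 and 29.8 CPM with tazemetostat and 22, 18.8 and 18.9 CPM with the combination, against 37.2, 37.0 and 36.4 CPM under DMSO. No group overlapped another. It fell by 0.59 ± 0.07 with ipatasertib (SE; edgeR adjusted p = 1.57e-06), by 0.22 ± 0.07 with tazemetostat (adjusted p = 0.0179; lost under scaling by total counts and without tazemetostat C) and by 0.89 ± 0.07 with the combination (adjusted p = 1.98e-09).

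SUV39H2, its paralogue, had 39.6, 35.9 and 32.5 CPM with ipatasertib, 51.6, 59.5 and 60.2 CPM with tazemetostat and 26.0, 33.4 and 28.6 CPM with the combination, against 53.3, 50.5 and 52.0 CPM under DMSO. Combination and ipatasertib libraries lay below all others and overlapped each other, and tazemetostat overlapped DMSO. On the log2 scale SUV39H2 changed by -0.52 ± 0.09 with ipatasertib, 0.14 ± 0.09 with tazemetostat and -0.82 ± 0.09 in the combination (SE; edgeR adjusted p = 5.28e-05, 0.205 and 8.72e-08). SETD8, the monomethylase of lysine K20 of histone H4, averaged 55.2 ± 0.620 CPM with ipatasertib, 68.3 ± 1.89 with tazemetostat and 45.3 ± 2.18 in the combination, against 77.8 ± 1.86 under DMSO (SD, n = 3 each). It fell by 0.50 ± 0.06, 0.19 ± 0.06 and 0.78 ± 0.06 on the log2 scale (edgeR adjusted p = 6.31e-07, 0.0106 and 3.86e-10).

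Genes that move with cell division shifted in the same libraries. The summed level of 12 proliferation genes was 2770 to 2810 CPM with ipatasertib, 4150 to 4520 CPM with tazemetostat and 2340 to 2740 CPM with the combination, against 3730 to 3820 under DMSO. Of these, 9 fell with ipatasertib, 4 rose with tazemetostat and 10 fell with the combination, with 0 in the opposite direction. The called shares were 75%, 33.3% and 83.3%, beside 54.1%, 46.0% and 71.0% of all genes. TOP2A and PCNA were not called with ipatasertib (-0.10 and -0.12) or the combination (-0.14 and -0.11). Without tazemetostat A and combination B, where 57.9% of all genes were called, 6 rose and 4 fell with tazemetostat. EZH2 itself changed by -0.42 ± 0.07, 0.13 ± 0.07 and -0.73 ± 0.07 (SE; edgeR adjusted p = 6.16e-05, 0.148 and 2.26e-08). The part of proliferation in the falls of DNMT1, SUV39H1, SUV39H2 and SETD8 was not tested.

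Several methyltransferases of lysine K4 of histone H3 fell with tazemetostat: MLL2, MLL4, SETD1A and SETD1B by 0.33 to 0.46, and MLL by 0.21, while MLL3 was at -0.01. These falls were not particular to tazemetostat. MLL2, MLL4 and SETD1A were also called lower with ipatasertib and with the combination, and MLL and SETD1B with the combination. The gene listed as MLL4 averaged 45.9 ± 2.08 CPM with ipatasertib, 44.5 ± 1.56 with tazemetostat and 42.9 ± 6.88 in the combination, against 61.0 ± 2.92 under DMSO (SD, n = 3 each), and with tazemetostat it fell by 0.46 ± 0.08 on the log2 scale (edgeR adjusted p = 0.000209). The gene listed as MLL2 had 79.1, 88.7 and 90.3 CPM with tazemetostat, against 126, 113 and 105 CPM under DMSO, a fall of 0.41 ± 0.09 (edgeR adjusted p = 0.00158). Both symbols have been used for more than 1 gene, so which of these paralogues each is cannot be told from the symbol. SETD2, which trimethylates lysine K36 of histone H3, was not called against DMSO, at -0.14, -0.04 and -0.13. SUV420H2, which adds further methyl groups to lysine K20 of histone H4, fell with tazemetostat by 0.43 ± 0.11 (SE; edgeR adjusted p = 0.00464).

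Of the demethylases of the mark that EZH2 writes, KDM6A moved little and KDM6B rose in the combination. KDM6A had 22.4, 23.5 and 22 CPM with ipatasertib, 21.8, 24.2 and 23.0 CPM with tazemetostat and 23.4, 23.5 and 22.4 CPM with the combination, against 20.7, 21.5 and 21.5 CPM under DMSO. Every treated library lay above every DMSO library by a small margin, and no comparison was called, with 95% intervals of -0.05 to 0.24, -0.03 to 0.26 and -0.02 to 0.26 on the log2 scale. KDM6B had 58.9, 59.1 and 65.8 CPM with ipatasertib, 56.0, 51.3 and 52.5 CPM with tazemetostat and 82.9, 59.8 and 68.1 CPM with the combination, against 62.3, 58.2 and 55.0 CPM under DMSO. KDM6B rose in the combination by 0.26 ± 0.09 (SE; edgeR adjusted p = 0.0134), with libraries that overlapped DMSO. The call was lost without DMSO C or without combination A (0.12), and the 20 alternatives gave 0.12 to 0.40. Without combination B the change was above the sum of those with each inhibitor, by 0.45 ± 0.10 (edgeR adjusted p = 0.00351). With all libraries that departure was not called.

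Of all 15 tested demethylases, 3 rose and 4 fell with ipatasertib, 1 rose and 7 fell with tazemetostat, and 6 rose and 4 fell with the combination. That is 46.7%, 53.3% and 66.7% called, beside 54.1%, 46.0% and 71.0% of all genes. Under scaling by total counts the calls were 6 and 2, 2 and 3, and 8 and 2, so the balance turned with ipatasertib. KDM4C, a demethylase of lysine K9 of histone H3 with the E-boxes shown above, had 55.8, 54.1 and 54.5 CPM with ipatasertib, 43.8, 51.4 and 47.1 CPM with tazemetostat and 64.2, 72.2 and 67.7 CPM with the combination, against 39.7, 38.4 and 38.4 CPM under DMSO. No group overlapped another, and the log2 changes were 0.50 ± 0.07, 0.29 ± 0.07 and 0.81 ± 0.07 (SE; edgeR adjusted p = 4.09e-06, 0.0017 and 1.79e-09).

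KDM5B, a demethylase of lysine K4 of histone H3, had 134, 131 and 136 CPM with ipatasertib, 79.8, 87.1 and 87.0 CPM with tazemetostat and 142, 147 and 147 CPM with the combination, against 97.9, 91.3 and 98.4 CPM under DMSO. Tazemetostat lay below DMSO and the other treatments above it, with no overlap. The log2 change was 0.48 ± 0.06 with ipatasertib, -0.18 ± 0.06 with tazemetostat and 0.60 ± 0.06 in the combination (SE; edgeR adjusted p = 7.99e-07, 0.0144 and 1.33e-08), and the tazemetostat call was lost under scaling by total counts and without DMSO C. KDM1A, a demethylase of the same lysine, averaged 236 ± 6.56 CPM with ipatasertib, 249 ± 2.71 with tazemetostat and 199 ± 12.7 in the combination, against 308 ± 2.96 under DMSO (SD, n = 3 each). It fell by 0.38 ± 0.05, 0.31 ± 0.05 and 0.63 ± 0.05 on the log2 scale (edgeR adjusted p = 7.13e-06, 0.00015 and 3.51e-09).

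Of the 7 acetyltransferases 3 were called with ipatasertib, 2 with tazemetostat and 3 in the combination, or 42.9%, 28.6% and 42.9%, beside 54.1%, 46.0% and 71.0% of all genes. KAT2A fell by 0.42 ± 0.08, 0.32 ± 0.07 and 0.71 ± 0.08 on the log2 scale (SE; edgeR adjusted p = 9.11e-05, 0.00173 and 6.94e-08), with 37.8, 30.6 and 31.9 CPM in the combination against 57.5, 56.3 and 50.6 CPM under DMSO. Its paralogue KAT2B, near 1 CPM, was higher with tazemetostat by 0.66 ± 0.20 (edgeR adjusted p = 0.0122), a call lost without DMSO B and without tazemetostat C.

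Of the 18 deacetylases 9 were higher and 2 lower with ipatasertib (10 and 1 under scaling by total counts), which is 61.1% called beside 54.1% of all genes (25.4% higher and 28.7% lower). The balance of directions was not tested. With tazemetostat 5 rose and 4 fell, or 5 and 8 without tazemetostat A and combination B, and with the combination 9 rose and 5 fell (50% and 77.8% called, beside 46.0% and 71.0% of all genes). HDAC5, a class IIa deacetylase, had 30.6, 30.6 and 32.4 CPM with ipatasertib, 16.1, 15 and 16 CPM with tazemetostat and 47.4, 39.4 and 44.7 CPM with the combination, against 13.4, 13.2 and 13.3 CPM under DMSO. The groups did not overlap. Its log2 change was 1.23 ± 0.08 with ipatasertib (SE; edgeR adjusted p = 1.37e-10), 0.24 ± 0.08 with tazemetostat (adjusted p = 0.017) and 1.72 ± 0.08 with the combination (adjusted p = 1.54e-13), and the combination was 0.49 ± 0.07 above ipatasertib (adjusted p = 1.91e-05).

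HDAC9, also of class IIa, had 5.67, 4.22 and 5.87 CPM with ipatasertib, 8.57, 9.61 and 9.22 CPM with tazemetostat and 11.3, 14.6 and 13.2 CPM with the combination, against 3.94, 4.24 and 4.77 CPM under DMSO. Ipatasertib overlapped DMSO, and the combination lay above tazemetostat. The log2 change was 0.30 ± 0.14 with ipatasertib, 1.09 ± 0.12 with tazemetostat and 1.60 ± 0.12 in the combination (SE; edgeR adjusted p = 0.0759, 7.87e-07 and 6.47e-10). The combination exceeded tazemetostat by 0.51 ± 0.11 (edgeR adjusted p = 0.000542) and ipatasertib by 1.31 ± 0.12 (adjusted p = 6.12e-08).

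The class I deacetylases HDAC1 and HDAC2 changed by under 0.3 log2 units. HDAC1 changed by 0.15 ± 0.05, 0.11 ± 0.05 and 0.18 ± 0.05 (SE; edgeR adjusted p = 0.0242, 0.107 and 0.00623), and HDAC2 by -0.19 ± 0.07, 0.07 ± 0.07 and -0.28 ± 0.07 (adjusted p = 0.0355, 0.463 and 0.002). The ipatasertib call of HDAC1 was lost without DMSO B, DMSO C or ipatasertib B, that of HDAC2 under 12 of 20 alternatives, and the combination call of HDAC2 under scaling by total counts. Of the sirtuins, deacylases that use NAD+, SIRT2 averaged 23.2 ± 0.567 CPM with ipatasertib, 15.5 ± 1.61 with tazemetostat and 25.0 ± 2.58 in the combination, against 17.3 ± 0.917 under DMSO (SD, n = 3 each). SIRT3, a mitochondrial sirtuin, had 12.6, 12.3 and 12.8 CPM with ipatasertib, 7.92, 7.07 and 7.87 CPM with tazemetostat and 10.9, 9.30 and 11.1 CPM with the combination, against 11.0, 9.98 and 9.71 CPM under DMSO. It was higher with ipatasertib (0.29 ± 0.09), lower with tazemetostat (-0.43 ± 0.09) and at 0.03 ± 0.09 with the combination (SE; edgeR adjusted p = 0.0116, 0.000904 and 0.795). SIRT4 had 20, 22 and 38 counts in all over the ipatasertib, tazemetostat and combination libraries and 16 under DMSO, so its log2 change of 1.44 ± 0.51 in the combination (edgeR adjusted p = 0.0169) rests on few reads.

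Of the bromodomain proteins, which bind acetylated histones, 2 rose and 1 fell with ipatasertib, 1 rose and 3 fell with tazemetostat, and 1 rose and 2 fell with the combination, which became 3 and 2 under scaling by total counts. The called shares were 42.9%, 57.1% and 42.9%, beside 54.1%, 46.0% and 71.0% of all genes.

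Among the 16 remodeler subunits 2 rose and 7 fell with ipatasertib, 1 rose and 5 fell with tazemetostat and 3 rose and 8 fell with the combination. The called shares were 56.2%, 37.5% and 68.8%, beside 54.1%, 46.0% and 71.0% of all genes. Under scaling by total counts the balance was even with the single inhibitors, at 5 and 5 and at 2 and 2, and 4 and 6 in the combination. The member that stood out was SMARCA1, the ATPase of an ISWI remodeler, with 10.4, 9.09 and 9.78 CPM with ipatasertib, 15.2, 16.9 and 18.1 CPM with tazemetostat and 19.8, 22.7 and 20.9 CPM with the combination, against 7.01, 6.80 and 8.08 CPM under DMSO. Its 4 groups did not overlap. The log2 change was 0.43 ± 0.10 with ipatasertib, 1.20 ± 0.10 with tazemetostat and 1.54 ± 0.10 in the combination (SE; edgeR adjusted p = 0.00146, 5.14e-09 and 2.74e-11).

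SMARCA4 and SMARCA2 are the alternative ATPases of SWI/SNF. SMARCA4 had 207, 214 and 207 CPM with ipatasertib, 268, 248 and 266 CPM with tazemetostat and 200, 177 and 195 CPM with the combination, against 322, 315 and 298 CPM under DMSO. The DMSO libraries were the highest and did not overlap any treated group. SMARCA4 fell by 0.58 ± 0.06, 0.26 ± 0.06 and 0.71 ± 0.06 on the log2 scale (SE; edgeR adjusted p = 9.31e-08, 0.00114 and 1.49e-09). SMARCA2 was not called against DMSO, at 0.08, 0.06 and -0.13. The core subunits SMARCB1 and SMARCC1 fell in the combination by 0.49 ± 0.06 and 0.52 ± 0.05 (edgeR adjusted p = 1.88e-07 and 1.31e-08). ARID1A, which targets the complex, fell by 0.28 ± 0.06 with ipatasertib and by 0.25 ± 0.06 with the combination (edgeR adjusted p = 0.0007 and 0.00152), the second not called under scaling by total counts.

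**Figure D3:**
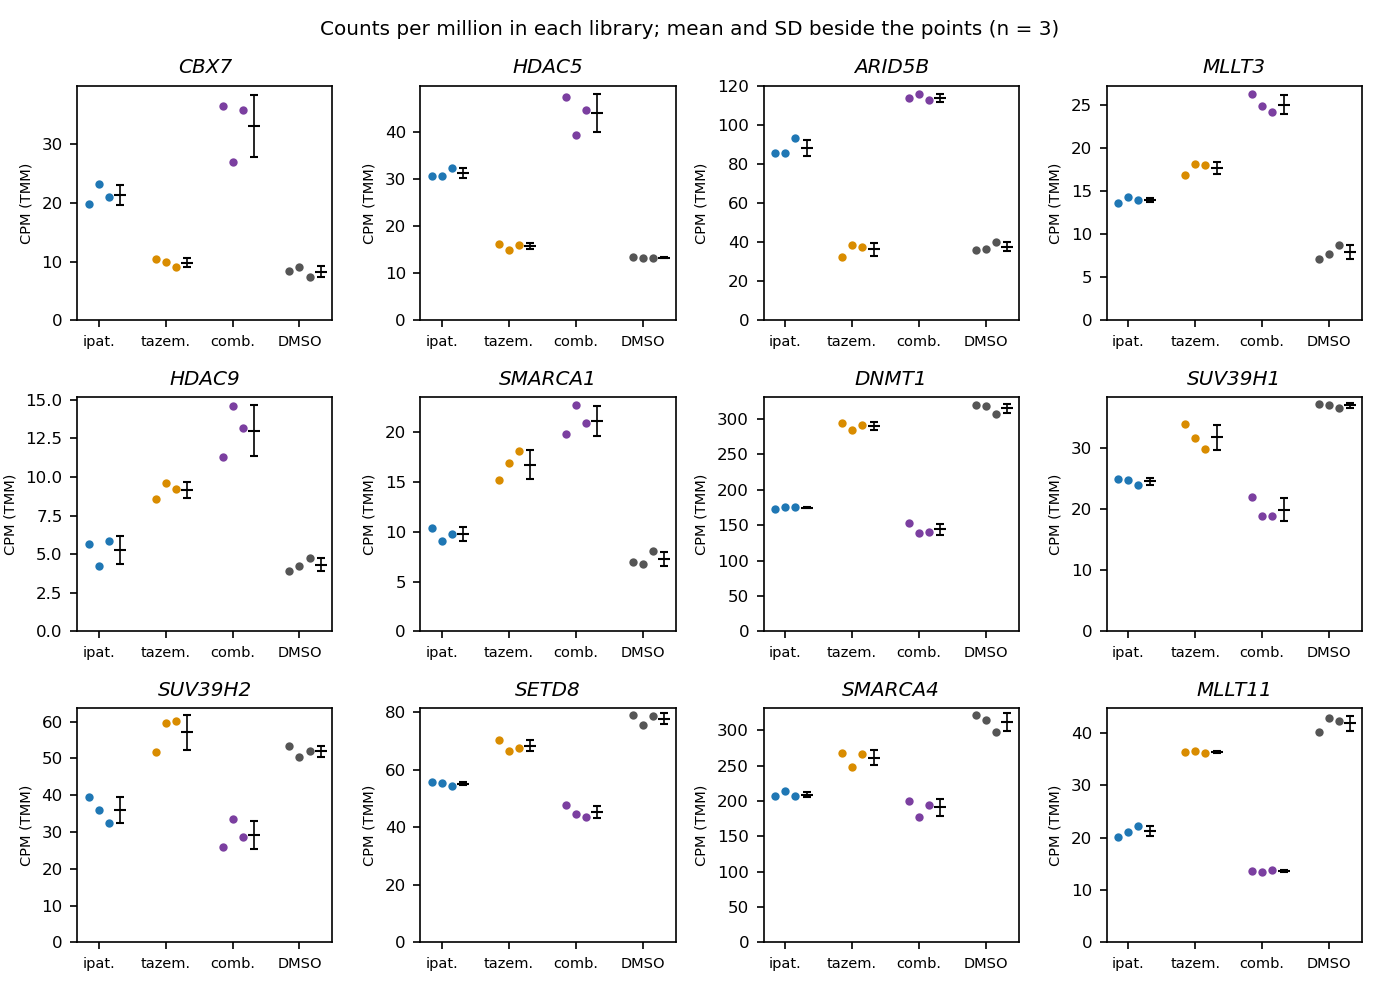
CPM (TMM-scaled counts, vertical axes from 0) of 12 members in each library, with ipatasertib (ipat.), tazemetostat (tazem.), the combination (comb.) and DMSO from left to right; bars beside the points give the mean and SD (n = 3). CBX7, HDAC5, ARID5B, MLLT3, HDAC9 and SMARCA1 are highest in the combination, and DNMT1, SUV39H1, SETD8, SMARCA4 and MLLT11 have their lowest mean there, as does SUV39H2.

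ARID5B, a DNA-binding partner of a histone demethylase, had 86.0, 85.9 and 93.3 CPM with ipatasertib, 32.7, 38.9 and 37.8 CPM with tazemetostat and 114, 116 and 113 CPM with the combination, against 36.2, 36.7 and 40.4 CPM under DMSO. Tazemetostat overlapped DMSO, and the combination lay above ipatasertib. The log2 change was 1.23 ± 0.07 with ipatasertib, -0.05 ± 0.07 with tazemetostat and 1.60 ± 0.07 in the combination (SE; edgeR adjusted p = 3.99e-11, 0.614 and 1.4e-13). ARID4A was higher with ipatasertib (0.48 ± 0.09), lower with tazemetostat (-0.31 ± 0.09) and higher with the combination (0.29 ± 0.09; edgeR adjusted p = 0.000176, 0.0087 and 0.00737). ARID3A, with 3.61, 3.88 and 3.91 CPM with ipatasertib and 6.73, 6.37 and 5.70 CPM with tazemetostat, against 4.90, 5.11 and 4.28 CPM under DMSO, went the other way, at -0.34 ± 0.12 and 0.39 ± 0.11 (edgeR adjusted p = 0.0227 and 0.00606).

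The MLLT genes are fusion partners of MLL in leukaemia and do not form 1 family. MLLT3, which reads acylated histones, had 13.7, 14.3 and 14 CPM with ipatasertib, 16.9, 18.2 and 18.1 CPM with tazemetostat and 26.3, 24.9 and 24.2 CPM with the combination, against 7.17, 7.76 and 8.80 CPM under DMSO. Its groups did not overlap, and its log2 changes were 0.83 ± 0.09, 1.17 ± 0.08 and 1.67 ± 0.08 (SE; edgeR adjusted p = 1.7e-07, 1.22e-09 and 1.02e-12). MLLT11 had 20.2, 21.1 and 22.2 CPM with ipatasertib, 36.4, 36.5 and 36.2 CPM with tazemetostat and 13.7, 13.4 and 13.8 CPM with the combination, against 40.1, 42.9 and 42.3 CPM under DMSO. Its groups did not overlap either. MLLT11 fell by 0.98 ± 0.06, 0.20 ± 0.06 and 1.61 ± 0.07 on the log2 scale (SE; edgeR adjusted p = 2.78e-10, 0.0122 and 6.28e-14), and in the combination it was 3.06-fold lower than under DMSO.

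The combination was next set against each inhibitor alone. Against ipatasertib 44 members were called, 22 higher and 22 lower, which is 37.3% beside 39.1% of all genes (21.8% higher and 17.3% lower). Against tazemetostat 61 were called, 32 higher and 29 lower, 51.7% beside 60.6% (29.8% higher and 30.8% lower), and 47 and 21 under scaling by total counts (69.1% higher, beside 52.5%). Adding tazemetostat to ipatasertib raised HDAC9 most, by 1.31, then CBX2 by 1.24 ± 0.12 (SE; edgeR adjusted p = 9.89e-08), SMARCA1 by 1.11 ± 0.10 (adjusted p = 1.48e-08) and MLLT3 by 0.84 ± 0.08 (adjusted p = 7.09e-08). MLLT11 fell most, by 0.63 ± 0.07 (edgeR adjusted p = 5.1e-07), followed by CBX5, by 0.39 ± 0.07 (adjusted p = 0.000106). Against tazemetostat alone the largest rises were CBX7 at 1.76 ± 0.11, ARID5B at 1.65 ± 0.07 and HDAC5 at 1.48 ± 0.07, and the largest falls MLLT11 at -1.41 ± 0.07, DNMT1 at -1.01 ± 0.05 and SUV39H2 at -0.96 ± 0.09 (edgeR adjusted p at most 1.64e-08). DNMT3B was also 0.73 ± 0.09 lower in the combination than with tazemetostat (edgeR adjusted p = 1.04e-06).

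The interaction compares the log2 change in the combination with the sum of the changes with each inhibitor. It was called for 3 of 118 members, 2 above the sum and 1 below, which is 2.54% beside 3.62% of all genes (1.87% above and 1.75% below), and 28 members had an unadjusted p under 0.05 (23.7%, beside 18.5% of all genes). For MLLT11 the combination fell below the sum, by 0.43 ± 0.09 (SE; edgeR adjusted p = 0.0119). For ARID5B it was above the sum by 0.42 ± 0.10 (edgeR adjusted p = 0.0196), and for KDM5B by 0.30 ± 0.08 (adjusted p = 0.0423). ARID5B was no longer called without DMSO C, ipatasertib A or ipatasertib B, and KDM5B under 10 of 19 alternatives.

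This count rested on the libraries that stood apart. Without combination B 26 members were called and without tazemetostat A 8, counts for which the share of all genes is not given here. Without both libraries 43 were called, 31 above and 12 below the sum. The share of all genes then rose too, from 3.62% to 31.8%, so the rise is not particular to the members. Of those 43, the largest departures were these: CBX6 was above the sum by 0.75 ± 0.10 (edgeR adjusted p = 6.32e-07), against 0.51 ± 0.15 with all libraries (adjusted p = 0.0684), and CBX7 by 0.59 ± 0.12 (adjusted p = 0.000305), against 0.40 ± 0.16 (adjusted p = 0.177). SUV39H2 was below it by 0.59 ± 0.09 (edgeR adjusted p = 8.89e-06), against 0.44 ± 0.13 with all libraries (adjusted p = 0.0565).

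**Figure D4:**
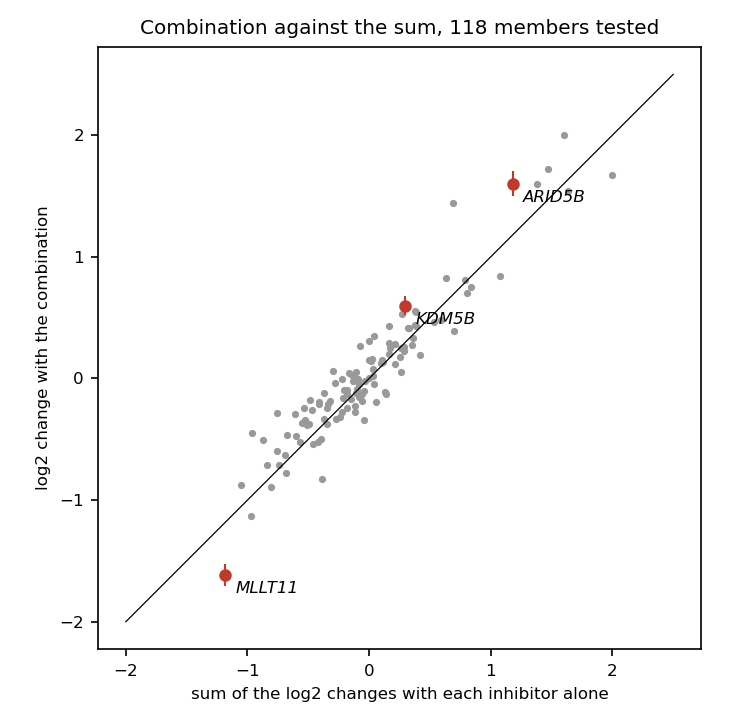
Log2 change of the 118 tested members in the combination (vertical axis) against the sum of their log2 changes with each inhibitor alone (horizontal axis), all relative to the same DMSO libraries; the line marks equality, and red points with the standard error of the interaction are the 3 called members. MLLT11 lies 0.43 below the line, and ARID5B and KDM5B lie 0.42 and 0.30 above it.

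Chromatin genes outside the symbol rule were set beside the members, from a list of 61 of which 58 were tested. With ipatasertib 4 rose and 31 fell, with tazemetostat 7 rose and 24 fell, and with the combination 5 rose and 34 fell, and under scaling by total counts these were 10 and 22, 9 and 11, and 12 and 26. The called shares were 60.3%, 53.4% and 67.2%, beside 54.1%, 46.0% and 71.0% of all genes, of which 28.7%, 20.9% and 34.5% were lower. The median log2 changes of these related genes were -0.18, -0.13 and -0.24. DOT1L, the methyltransferase of lysine K79 of histone H3, fell by 0.95 ± 0.11, 0.35 ± 0.10 and 1.28 ± 0.11 (SE; edgeR adjusted p = 3.42e-07, 0.008 and 1.9e-09). UHRF1, which brings DNMT1 to replicating DNA, fell by 0.63 ± 0.06 with ipatasertib and by 0.87 ± 0.06 with the combination (edgeR adjusted p = 1.86e-08 and 5.38e-11), and was at 0.07 with tazemetostat (adjusted p = 0.346). RYBP, a subunit of the PRC1 complexes without CBX, changed by -0.08 with ipatasertib (edgeR adjusted p = 0.34) and rose by 0.48 ± 0.07 with tazemetostat and by 0.31 ± 0.07 with the combination (adjusted p = 1.45e-05 and 0.000509).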

How the data were processed

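RNA was extracted with the RNeasy Plus kit, and Kapa Hyper Prep libraries of polyadenylated RNA were sequenced, per the labels' protocols. The authors deposited raw counts per gene for each library. The submitters' processing notes name the build hg19 and the tools HTSeq, STAR, SAMtools and DESeq2. Whether counting used strand is not stated, nor are versions and annotation, so reads of overlapping genes cannot be told apart. Their deposited table of normalised signal matched the counts divided by 1 size factor per library, within 1e-06, for 23202 of its 23228 lines, and served as a check only. The 5 summary lines without a gene held 29.8% to 38.6% of reads and were left out. Reads outside annotated genes alone were 23.9% to 25.7% (ipatasertib), 17.8% to 18.7% (tazemetostat), 22.8% to 24.5% (combination) and 19.1% to 20.6% (DMSO). That share was higher in both groups with ipatasertib, and its part in the results was not tested. A count of 0 allows up to 3 counts, 0.0600 to 0.134 CPM per library, for counting error only.

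Counts were analysed in R 4.3.3 with edgeR 4.0.16. After filterByExpr 14874 genes were tested, with TMM factors and 1 quasi-likelihood fit over 12 libraries, 1 coefficient per group and no block; the common biological coefficient of variation was 0.0645. CPM values use TMM-scaled library sizes, and the standard error is the log2 change over the square root of F. Tests were two-sided, over 6 comparisons, with Benjamini-Hochberg adjustment over all genes tested in each. The fit was tested on simulated data. Libraries of the same replicate letter deviated from their group means with correlations of -0.07 to 0.3, over 0.1 in 2 of 18 pairs. Pairs of different letters had -0.34 to 0.18, over 0.1 in 3 of 36. Letters were not taken as pairs. Both same-letter pairs over 0.1 joined tazemetostat and combination libraries, A with A (0.3) and B with B (0.21), while C with C was at -0.04. Whether these groups were paired by letter cannot be told from this.

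The members and all gene lists were chosen with earlier results of these data known. Named were the 8 largest rises and falls per comparison, a list of members given in every comparison with DMSO, and members with an interaction; other genes were chosen after their values were seen. Alternatives were DESeq2 1.42.0 as a test, its size factors, total counts, other filters, 2-group fits, a replicate block and libraries left out. Symbols of the files were matched to RefSeq for 119 of 121 members. A small number of members are counted but their values are not reported here.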

Additional observations from a re-analysis of the deposited data

Results flagged for a closer look

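Of the members, 3 had a response to the combination that differed from the sum of the responses to each inhibitor in the test of that difference itself (edgeR quasi-likelihood test of the interaction, adjusted over all genes tested). That is 2.54% of members, beside 3.62% of all genes. The count was 26 without combination B and 43 without tazemetostat A and combination B, where 31.8% of all genes were called. ARID5B was above the sum by 0.42 on the log2 scale, with 114, 116 and 113 CPM in the combination, 86.0, 85.9 and 93.3 CPM with ipatasertib, 32.7, 38.9 and 37.8 CPM with tazemetostat and 36.2, 36.7 and 40.4 CPM under DMSO. ARID5B lost this call in 3 of 19 alternatives. KDM5B was above the sum by 0.30 and lost its call in 10 of 19. MLLT11 differed from the sum by -0.43, and it kept its call in all 19 alternatives that gave a value.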

How the results depend on the processing

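The counts of called members stayed within 1.5 times the reported ones under every alternative for the 5 comparisons other than the interaction. Leaving out 1 library gave 52 to 71 called with ipatasertib, 49 to 70 with tazemetostat, 71 to 83 with the combination, 33 to 49 for the combination against ipatasertib and 53 to 66 against tazemetostat. The 1.5-fold test then gave 5 to 6, 4 to 5 and 15 to 18 members. For the interaction, with 3 members called, there were 5 without a filter on low counts, 8 with the DESeq2 test and 6 with a replicate block. With 1 library left out there were 1 to 26 (1 without DMSO C, ipatasertib A or ipatasertib B, 26 without combination B). Without tazemetostat A and combination B there were 43, where 31.8% of all genes were called. The cause was not tested. Of 146 named results, 101 kept their direction and side of the threshold under all 20 alternatives, and 23 lost a call at least once. Others gained a call. Among them, DNMT1 with tazemetostat gained it under 10 of 20 alternatives and BMI1 with ipatasertib under 5. In the combination SMARCA2 gained it under 8 and TET2 under 7. Same-letter samples were not paired. With a replicate block, called members numbered 65 with ipatasertib and 59 with tazemetostat. Values that changed sign were not called in the reported fit. Under total-count scaling these were, in the combination, SMARCA2, SETD2 and TET1 at 0.01 and BMI1 at 0.12, and with tazemetostat ARID1A at 0.01, SETD2 at 0.03 and RING1 at 0.04. In the combination BMI1 was 0.02 with at least 1 CPM in 3 libraries, 0.18 without tazemetostat A and combination B and -0.24 to 0.18 with 1 library left out, and RING1 was -0.01 without a filter and -0.11 to 0.17 with 1 left out. With 1 library left out TET2 was -0.01 to 0.05 with ipatasertib and -0.08 to 0.04 with tazemetostat. Depth limits SIRT4, ARID3C, DNMT3L and KDM4DL, where a difference was not detectable or rests on few reads.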
